A study of Mus musculus with 2 samples.

Results

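The regions described here are the intergenic H3K4me1 peaks that lay at a middle distance from genes. A peak of the authors' replicated list on chromosomes 1 to 19 was taken when its centre fell outside every protein-coding gene record and 5 to 100 kb from the nearest protein-coding transcription start site (TSS), read as the 5′ end of the record. The rule found 53978 peaks among 222570 autosomal peaks of the list (24.3%) and 226060 peaks on all chromosomes. Of the other autosomal peaks, 47449 lay under 5 kb from a TSS, 103561 lay inside a gene at 5 kb or more, and 17582 lay in intergenic sequence over 100 kb away. The data are ChIP-seq, chromatin immunoprecipitation followed by sequencing, for histone H3 monomethylated at lysine 4 in E14TG2a.4, a male 129/Ola mouse embryonic stem cell line. There was 1 group, 2 biological replicates of that single line, and the labels name no treatment. Both replicates carry the same donor label, a control library was not analysed here, and the lists hold no read counts, which leaves depth unknown and allows no test between conditions.

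H3K4me1 is placed mainly by the methyltransferases MLL3 and MLL4 and marks enhancers, both active ones and those that are only primed, as well as the flanks of active promoters. Enhancers can lie upstream or downstream of the gene they act on, inside it or far away in intergenic sequence, and often occur in groups around genes that specify cell identity. The mark itself names no target gene, so the nearest gene given here is a label of position.

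Because the base sequence of a marked region is what a transcription factor reads, 4 marked windows are shown, each from a peak near a gene named below. They come from the authors' separate mm9 list, since the genome sequence used here is mm9, and each holds 1 match to a motif bound by a pluripotency factor family. The motifs were the octamer ATGCAAAT of POU factors, CATTGTT of SOX factors, TCAAGGTCA of the orphan receptor ESRRB and GGGTGTGG of Krüppel-like factors (KLF), searched on both strands. For each motif the window is the one with the highest signal value among mm9 intergenic peaks that both replicate lists overlapped near a named gene, each gene being taken once. The windows are the central 300 bases of the peak, plus strand, with the match in capitals, and a match is a description of letters and not evidence of binding.
Rybp, octamer, mm9 chr6:100326551-100326850: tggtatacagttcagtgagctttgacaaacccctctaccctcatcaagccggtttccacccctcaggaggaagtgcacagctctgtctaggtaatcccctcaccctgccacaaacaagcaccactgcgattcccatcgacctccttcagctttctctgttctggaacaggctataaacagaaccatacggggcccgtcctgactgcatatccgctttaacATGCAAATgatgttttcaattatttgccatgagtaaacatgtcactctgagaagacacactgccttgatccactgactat
Foxa2, SOX, mm9 chr2:147879051-147879350: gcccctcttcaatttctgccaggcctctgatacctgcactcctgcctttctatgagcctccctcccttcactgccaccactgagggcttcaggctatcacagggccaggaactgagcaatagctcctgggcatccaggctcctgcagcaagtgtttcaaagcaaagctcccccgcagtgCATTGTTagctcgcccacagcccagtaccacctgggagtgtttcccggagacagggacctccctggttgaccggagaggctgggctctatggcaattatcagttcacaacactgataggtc
Id2, ESRRB on the minus strand, mm9 chr12:25758551-25758850: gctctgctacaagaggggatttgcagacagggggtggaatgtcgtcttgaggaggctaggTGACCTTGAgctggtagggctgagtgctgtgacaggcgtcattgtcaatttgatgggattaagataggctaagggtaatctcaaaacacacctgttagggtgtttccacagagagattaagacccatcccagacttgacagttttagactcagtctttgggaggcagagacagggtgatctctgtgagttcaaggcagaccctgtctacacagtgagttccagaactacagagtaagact
Cstad, KLF on the minus strand, mm9 chr2:30515751-30516050: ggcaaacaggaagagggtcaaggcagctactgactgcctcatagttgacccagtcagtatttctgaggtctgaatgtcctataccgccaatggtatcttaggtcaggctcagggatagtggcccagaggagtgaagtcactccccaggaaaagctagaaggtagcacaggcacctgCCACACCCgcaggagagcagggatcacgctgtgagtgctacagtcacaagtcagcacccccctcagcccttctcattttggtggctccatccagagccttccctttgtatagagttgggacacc
The Rybp window lay 89266 bp upstream of that gene, and the Foxa2 window 6496 bp upstream. The Id2 window lay 22256 bp downstream of its TSS, and the Cstad window 65341 bp downstream.

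Intergenic peaks also overlapped promoter windows of long non-coding RNAs. Of those windows 2 are shown, each with a nearest protein-coding gene that had many such peaks. The sequences are RefSeq promoter windows of GRCm38.p6 (mm10), from 250 bases before to 50 after the start, on the strand of the transcript, with CG pairs in capitals.
Gm34056, GRCm38.p6 chr1:136662196-136662495, minus strand: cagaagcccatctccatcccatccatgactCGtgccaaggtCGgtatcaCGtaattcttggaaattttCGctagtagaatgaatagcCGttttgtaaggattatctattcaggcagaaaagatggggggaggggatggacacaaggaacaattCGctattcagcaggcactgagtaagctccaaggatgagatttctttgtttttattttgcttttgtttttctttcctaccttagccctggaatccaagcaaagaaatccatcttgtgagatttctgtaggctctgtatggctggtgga
Gm36486, GRCm38.p6 chr17:29437530-29437829, minus strand: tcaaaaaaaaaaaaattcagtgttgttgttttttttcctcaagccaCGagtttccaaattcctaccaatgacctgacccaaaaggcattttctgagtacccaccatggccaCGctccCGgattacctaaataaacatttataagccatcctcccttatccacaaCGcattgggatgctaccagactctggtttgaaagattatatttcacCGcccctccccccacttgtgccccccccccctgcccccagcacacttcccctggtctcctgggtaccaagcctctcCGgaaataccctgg
The Gm34056 start lay 37344 bp downstream of Zfp281, and all 300 bases were inside 1 peak with a signal value of 9.97. The Gm36486 start lay 53206 bp upstream of Pim1, and part of its window, upstream of the start, was in a peak with a signal value of 12.9, while the start itself was outside it. Both windows held 6 CG pairs.

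The sequence that could hold such peaks, all intergenic autosomal bases 5 to 100 kb from a TSS, came to 587 Mb, or 23.8% of the autosomes. It held 92.0 intergenic peaks per Mb, against 258.8 per Mb of sequence under 5 kb from a TSS, 117.0 per Mb inside genes and 21.8 per Mb of intergenic sequence over 100 kb away. Replicate 1 peaks covered 8.19% of its bases and replicate 2 peaks 8.02%. The same shares over 100 kb away were 1.66% in replicate 1 and 1.70% in replicate 2. Under 5 kb from a TSS they were 26.9% in replicate 1 and 25.02% in replicate 2, so the order of these classes was the same in both replicates and the gaps between the classes were far wider than those between the replicates.

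The peaks lay on both sides of genes almost in proportion to the sequence there. Upstream of the nearest TSS lay 37481 of them, or 69.4%, and 68.8% of the territory was upstream. In the replicate lists the upstream share was 69.3 ± 0.0138% (mean ± SD, n = 2). Density was 92.8 peaks per Mb upstream and 90.2 per Mb downstream. Within that near balance, side and distance went together. At 5 to 10 kb, upstream sequence held 125.1 peaks per Mb and downstream sequence 107.5 per Mb. At 10 to 20 kb the values were 110.8 upstream and 110.2 downstream, and at 75 to 100 kb they were 57.3 upstream and 65.5 downstream. Coverage by peaks gave the same crossing in each replicate. At 5 to 10 kb replicate 1 had 11.3% of upstream and 10.7% of downstream bases in peaks, and replicate 2 had 11.0% upstream and 10.3% downstream. At 50 to 75 kb replicate 1 had 5.95% upstream and 6.94% downstream, and replicate 2 had 5.88% upstream and 6.82% downstream. The gap between the sides at 50 to 75 kb was larger than the gap between the replicates.

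**Figure D1:**
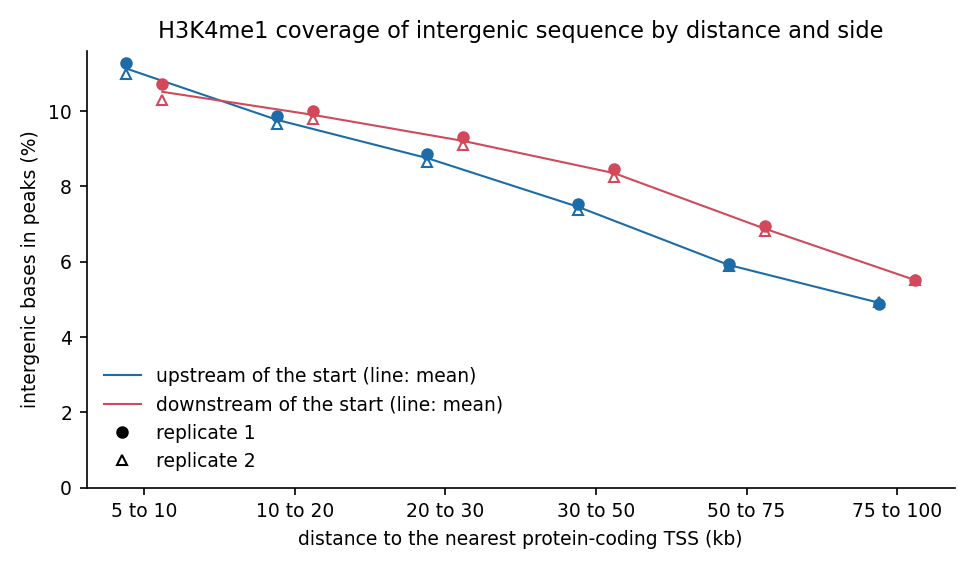
Share of intergenic bases in H3K4me1 peaks (%) against distance to the nearest protein-coding TSS (kb), upstream in blue and downstream in red, with a circle for replicate 1, a triangle for replicate 2 and a line for their mean. Upstream coverage is above downstream coverage at 5 to 10 kb and below it in every class from 10 kb outwards, in both replicates.

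Density declined steadily with distance while the peaks themselves changed little. Both sides together held 121.5 peaks per Mb at 5 to 10 kb, 110.7 at 10 to 20 kb, 100.8 at 20 to 30 kb, 88.8 at 30 to 50 kb, 71.8 at 50 to 75 kb and 60.5 at 75 to 100 kb. Over the same classes the median width went only between 648 and 668 bp, and the median signal value, the authors' own strength per peak, was 4.32 nearest the gene and 4.06 farthest from it. The median distance was 25.6 kb, with 16.7% of the peaks at 5 to 10 kb and 9.02% at 75 to 100 kb. At the inner bound 2 peaks had their centre 5000 bp from a TSS, at Rab5if with a signal value of 5.95 and at Defb7 with 3.71, and the nearest outside it lay 4999 bp from Osm, with 8.001. At the outer bound a peak 99973 bp from Inhbb was inside and one 100002 bp from Ktn1 outside, with signal values of 5.65 at Inhbb and 3.87 at Ktn1. Neither bound of the rule marked a break. Intergenic peaks at 5 to 6 kb, just inside, had a median width of 691 bp and covered 13.0% of the bases, against 668 bp and 13.5% at 4 to 5 kb, just outside. At 95 to 100 kb, just inside, the values were 622.5 bp and 5.36%, against 627 bp and 4.91% in the 5 kb just outside.

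The intergenic peaks were of middling width and strength among the classes. Their median width was 662 bp, with an interquartile range of 409 to 1179 bp, against 794 bp under 5 kb from a TSS, 690 bp inside genes and 602 bp over 100 kb away. The replicate lists held narrower peaks, with medians of 398 bp in replicate 1 and 390 bp in replicate 2, or 394 ± 5.66 bp (SD, n = 2). Peaks of 1 kb or wider made up 31.3%, and 435 reached 5 kb. The median signal value was 4.26, against 4.75 under 5 kb from a TSS, 4.10 inside genes and 3.88 over 100 kb away. It was 3.83 in replicate 1 and 3.76 in replicate 2, each within its own list.

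The widest single peaks lay near genes of unlike function. The widest, 14787 bp, stood 30492 bp upstream of Ptma, the gene of prothymosin alpha, at chr1:86488672-86503458 (mm10, as all positions that follow unless named mm9). Replicate 1 peaks held 97.2% of it and replicate 2 peaks 96.1%. A peak of 14683 bp lay downstream of Sik1, a salt-inducible kinase gene, and peaks of 11664 bp near Rsc1a1, 11620 bp near Mturn and 11478 bp near the homeobox gene Nkx6-3 followed. The rule placed only the centre of a peak outside genes. The Rsc1a1 peak, chr4:141673830-141685493, ran over most of that gene's record, 141683563-141685716, almost to its TSS. The Mturn peak ran into the downstream end of its gene. The Ptma peak had a signal value of 15.5. Across the intergenic peaks the median signal value was 3.25 under 300 bp and 9.84 at 5 kb or wider. The peak with the highest signal value, 17.0, lay upstream of Cipc, which encodes a repressor of the circadian clock, and had a value of 18.9 in replicate 1 and 10.0 in replicate 2. The next lay near Il17b and Irf2bpl, with 16.0 each, near Ltbp4, which encodes a binding protein of latent TGF-beta, with 15.9, and near the cell polarity gene Pard6b, with 15.7. The Ltbp4 peak also ran into the downstream end of its gene. The Cipc and Irf2bpl peaks belonged to one stretch of chromosome 12, chr12:86789834-86920862, in which 52 peaks stood and 47 were intergenic peaks of the kind described. The stretch was bounded by the start of a wide group of peaks near Lrrc74a, named below, and the end of the Cipc peak. It was thus chosen for wide and strong peaks, and its coverage and signal values are no separate result. Replicate 1 peaks covered 77.2% of its 131029 bp and replicate 2 peaks 74.5%, or 75.8 ± 1.84% (SD, n = 2). It held 12 of the 1241 intergenic peaks with a signal value of 10 or more.

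In the mm10 lists most of the peaks stood close to another peak. A neighbour of any class lay within 1 kb of 70.5% of them, against 73.1% of all autosomal peaks, 81.7% under 5 kb from a TSS, 73.0% inside genes and 58.6% over 100 kb away. In the replicate lists the share was 79.3% in replicate 1 and 80.0% in replicate 2. In the mm9 list, whose peaks are wider and were classed with other gene models, it was 38.1%. The median gap to the nearest peak was 281 bp, and gaps of 100 to 200 bp were the most frequent, at 22.9%. No gap in the list was under 46 bp. Intermediate gaps were more frequent than among the other autosomal peaks. Gaps of 2 to 4 kb made up 8.13% of them, against 6.23% of the other peaks, and gaps of 4 to 8 kb made up 6.08%, against 4.37%. Both replicate lists gave the same direction, with 5.69% against 4.23% in replicate 1 and 5.51% against 4.04% in replicate 2 for 2 to 4 kb. A neighbour within 3 kb was found for 95.9% of peaks under 5 kb from a TSS and 86.2% inside genes. For the intergenic peaks described the share was 84.2%, and over 100 kb away it was 70.8%. The other peaks are thus a mix, and wider spacing is not particular to the peaks described. Of the peaks, 1177, or 2.18%, had no neighbour within 20 kb, against 2.48% of all autosomal peaks, 0.885% under 5 kb from a TSS, 1.86% inside genes and 11.3% over 100 kb away.

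**Figure D2:**
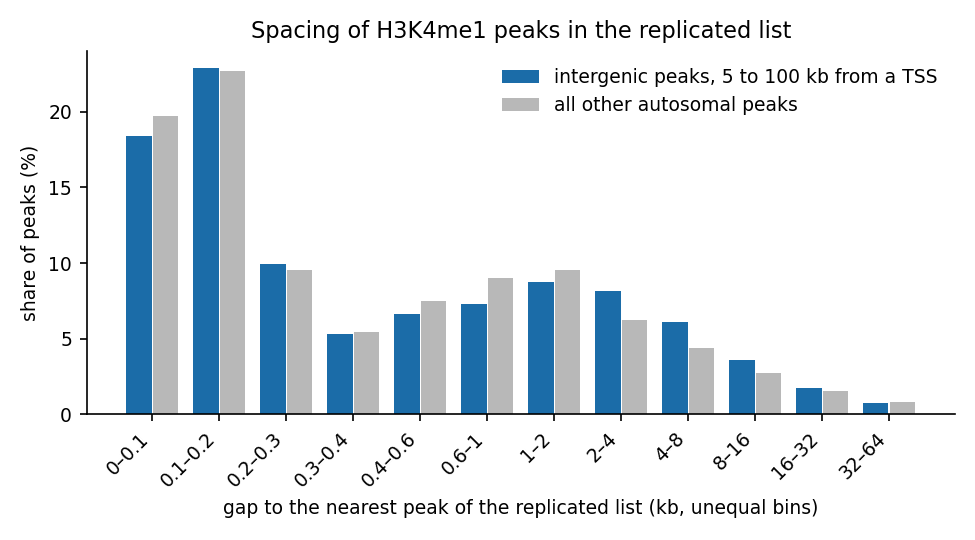
Share of peaks (%) by gap to the nearest peak of the replicated list (kb, unequal classes), with blue bars for intergenic peaks 5 to 100 kb from a TSS and grey bars for all other autosomal peaks. Gaps of 100 to 200 bp are the most frequent in both. The intergenic peaks lie furthest above the others between 2 and 16 kb, and by less at 100 to 300 bp and 16000 to 32000 bp.

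Joining across gaps of up to 1 kb gave 26388 clusters made only of these intergenic peaks. Of these, 15921, or 60.3%, were single peaks, and 1269 held 5 or more and together 15.7% of the intergenic peaks. Spans of 10 kb or more were reached by 471 clusters. The widest, 49599 bp with 15 peaks at chr2:172574993-172624591, lay downstream of Tfap2c, which encodes the AP-2 gamma factor of trophoblast and germ cells, and 84.8% of it was in peaks of replicate 1 and 87.6% in replicate 2. The one with the most peaks, 27 over 46246 bp, lay downstream of Prdm14, a regulator of naive pluripotency and germ cells, with 76.2% in replicate 1 and 78.2% in replicate 2. Clusters of 47535 bp near Acot11, an acyl-CoA thioesterase gene, of 39513 bp near the homeobox gene Nkx1-1 and of 37746 bp near Lrrc74a completed the 5 widest. In all 5, both replicates covered over 75% of the span. The Lrrc74a cluster is part of the chromosome 12 stretch given above and contains the Irf2bpl peak with a signal value of 16.0.

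Replicate support went with the width of the peak. The read-me lists name the pooled and replicate lists as sources of the replicated list, by a rule they do not state, so the overlap is not independent of how it was made. Both replicate lists overlapped 49578 of the intergenic peaks by at least 1 bp, or 91.8%, against 91.5% of all autosomal peaks. Replicate 1 overlapped 95.6% and replicate 2 overlapped 96.2%, 2001 were met only by replicate 1 and 2332 only by replicate 2, and 67 by neither. Of peaks under 300 bp wide, 71.4% were met by both. The share was 84.4% at 300 to 500 bp, 96.4% at 500 bp to 1 kb, 99.9% at 1 to 2 kb and 100% from 2 kb upwards. Strength gave a similar order, with 70.8% below a signal value of 3 and 100% at 7 or more. Isolated peaks were met less often, with 84.9% for those without a neighbour within 20 kb, whose median width was 495 bp, against 94.1% for those with a gap under 100 bp, whose median width was 758 bp. Where both replicates overlapped, the signal values of the replicate peaks with the largest overlap had a Spearman correlation of 0.684 across 49578 peaks of the same 2 libraries, given as a description.

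The nearest genes were few relative to the peaks. Of 20330 autosomal protein-coding genes with a known strand, 9320, or 45.8%, were nearest to at least 1 of the peaks, and 1663, or 8.18%, were nearest to 10 or more. Those 1663 genes took 52.8% of the peaks, and the 439 genes with 20 or more took 22.8%. A gene can have such peaks only where it has intergenic sequence of its own at 5 to 100 kb, here called its territory, and 15793 genes had some. Of these, 6473 had none of the peaks. The number did not follow space alone, as 289 of the 1145 genes with 100 kb or more of territory had none, and the Spearman correlation of territory with the number of peaks was 0.422 across the 15793 genes. Coverage of the territory of each gene had a Spearman correlation of 0.945 between the replicates, again across genes that share both libraries. Over those genes its median was 3.03% in replicate 1 and 2.81% in replicate 2.

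The ranking of genes by number of peaks depended on the list and gene models. Of the 10 genes with the most peaks, 7 were also in the top 10 of the pooled list and 7 with gene records of every type, but 4 in that of the mm9 list with its own gene models. Zfp281, which encodes a zinc finger factor of the pluripotency network, was nearest to 82 peaks, 41 on each side, and 62.3% of its territory was covered in replicate 1 and 61.8% in replicate 2. Tbx3, a T-box factor of naive cells, was nearest to 74, with 52 upstream and 22 downstream and coverage of 50.2% in replicate 1 and 51.9% in replicate 2. Hes1, a transcriptional repressor known as a Notch target, was nearest to 73, with 37.7% and 39.7% covered in replicates 1 and 2. These 3 genes had between 93.2% and 96.3% of their peaks met by both replicates. Otx2, a homeobox factor of the exit from naive pluripotency, was nearest to 68, with 30.1% covered in replicate 1 and 31.4% in replicate 2. The zinc finger genes Zfp64 and Zfp217 were nearest to 63 and 54 peaks, with 48 and 44 of them upstream. Klf5, a Krüppel-like factor of naive cells, had 53, with 15 upstream and 38 downstream. Sik1, Cstad and the predicted gene Gm30733 also had 53 each. Among genes with 100 kb or more of territory, mean coverage was highest at Tfap2c, with 67.4% in replicate 1 and 70.9% in replicate 2, followed by Zfp281 and then by Smad7, an inhibitor of TGF-beta family signalling, with 60.1% in replicate 1 and 61.8% in replicate 2.

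**Figure D3:**
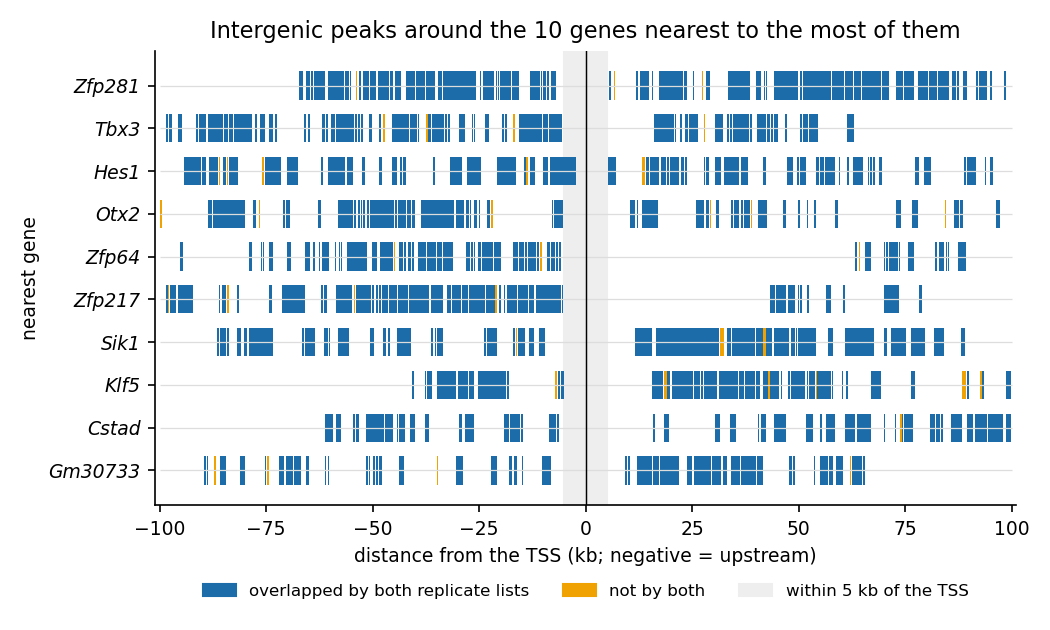
Intergenic H3K4me1 peaks around the TSS of the 10 genes nearest to the most of them, by distance from the TSS (kb, upstream negative), blue where both replicate lists overlapped the peak and orange where they did not, with the 5 kb on each side of the TSS in grey. Zfp281 has 41 peaks on each side, while Zfp64 and Zfp217 have most of theirs upstream and Klf5 most downstream.

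Gene lists drawn up for embryonic stem cells and for other tissues differed widely in coverage of their territories. Median coverage is over the genes of a list that had territory. The lists were written with earlier results of these data known, so the counts are a description. Of 24 measured genes of core and naive pluripotency, all were nearest to at least 1 peak, against 45.8% of all genes. Of the 24, 16 were nearest to 10 or more, against 8.18% of all genes. In the mm9 list with its own gene models, which held 34332 such peaks in all, 9 were nearest to 10 or more. The share of all genes was not computed for that list. In the replicated list the median was 18 peaks, against 0 for all genes. Median coverage was 43.0% in replicate 1 and 45.1% in replicate 2. All 24 genes had territory, with a median of 58.2 kb. Only 15793 of all 20330 genes had any, with a median of 20.8 kb, so the counts are not for equal space. Sox2, a partner of OCT4, had 49 peaks, with coverage of 36.8% in replicate 1 and 39.8% in replicate 2. Pou5f1, which encodes OCT4, had 11 peaks in only 13.3 kb of territory, with 67.7% covered in replicate 1 and 74.4% in replicate 2. Nanog, a homeobox factor of naive cells, had 22, with 41.5% in replicate 1 and 43.3% in replicate 2. The list was not uniform, since Dppa4 had 97.7 kb of territory and coverage of 3.99% in replicate 1 and 4.197% in replicate 2. Of the stem cell markers, Pou5f1, Nanog, Sox2, Klf4, Esrrb, Zfp42, Tfcp2l1, Tbx3, Dppa5a and Sall4 were each nearest to at least 1 peak, although a histone mark gives no expression. The same held for 45.8% of all genes and 64.3% of the fibroblast list described below.

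The lists of signalling genes were above the values over all genes, of which 8.18% were nearest to 10 or more peaks. Their median territory was also larger than the 20.8 kb over all genes. It was 46.4 kb for LIF and STAT3, 94.05 kb for FGF and ERK feedback and 85.75 kb for WNT. For BMP, NODAL and TGF-beta it was 39.55 kb, and the part of territory in the counts was not tested. Of 9 LIF and STAT3 genes, 5 were nearest to 10 or more peaks, with a median coverage of 40.6% in replicate 1 and 35.4% in replicate 2. Pim1, a kinase gene and STAT3 target, had 39 peaks and coverage of 70.0% in replicate 1 and 70.2% in replicate 2. Il6st, which encodes the receptor subunit gp130, had 26 peaks, and Junb had none in a territory of 0.1 kb. Of 12 FGF and ERK feedback genes, 9 had 10 or more, with Spry2 and Dusp6, both inhibitors of ERK signalling, at 40 and 33. Of 18 BMP, NODAL and TGF-beta genes, 8 had 10 or more, with Smad7 at 48 and Id2, a helix-loop-helix inhibitor, at 34. Of 13 WNT genes, 8 had 10 or more, with the beta-catenin partners Lef1 and Tcf7l1 at 31 and 22. Median coverage was 22.8% in replicate 1 and 23.8% in replicate 2 for the FGF list, 25.5% and 23.6% for the BMP, NODAL and TGF-beta list and 17.6% and 16.3% for the WNT list.

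The lineage lists differed among themselves. Over all genes, 8.18% had 10 or more peaks and the median territory was 20.8 kb. The median territory was 68.35 kb for the mesoderm list, 66.4 kb for neuroectoderm and 74 kb for endoderm. It was 45.95 kb for trophectoderm and 53.2 kb for the formative list, so the counts are not for equal space. Of 15 mesoderm genes, 9 had 10 or more, led by Eomes, a T-box factor of mesendoderm and trophoblast, with 36, and median coverage was 15.5% in replicate 1 and 14.03% in replicate 2. Of 14 neuroectoderm genes, 5 had 10 or more, led by Sox1 with 31, with a median coverage of 11.9% in replicate 1 and 10.8% in replicate 2. Of 14 endoderm genes, 3 did, led by Gsc, a homeobox factor of the gastrula organizer, with 35, and median coverage was 5.14% in replicate 1 and 3.99% in replicate 2. Foxa2, an endoderm factor, had 14 peaks in 190 kb of territory, with 6.47% covered in replicate 1 and 6.74% in replicate 2. Of 12 trophectoderm genes, 4 had 10 or more, with a median coverage of 21.9% in replicate 1 and 19.8% in replicate 2. Of 8 formative genes, 3 did, with 30.1% in replicate 1 and 29.4% in replicate 2.

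The genes listed for differentiated tissues had at most 2 peaks each. Of 16 such genes none was nearest to 10 or more, against 8.18% of all genes, and 43.8% were nearest to at least 1, against 45.8%. Median coverage was 0.526% in both replicates, against 3.03% in replicate 1 and 2.81% in replicate 2 over all genes, and the median territory was 14.3 kb, against 20.8 kb. Alb, the gene of serum albumin, had no peak in 41.1 kb of territory. Of 14 fibroblast genes, which would mark feeder cells, 1 had 10 or more, Thy1 with 17, or 7.14% against 8.18% of all genes. At least 1 peak was nearest to 64.3% of them, against 45.8%, with a median coverage of 3.67% in both replicates and a median territory of 90.25 kb. Dcn, the gene of the matrix proteoglycan decorin, had none in 99.3 kb. Chromatin and housekeeping lists were mixed. Of 15 Polycomb genes, 5 had 10 or more, with Rybp and Jarid2, both subunits of Polycomb complexes, at 45 and 40, and median coverage was 34.3% in replicate 1 and 37.1% in replicate 2. Territory was present for 13 of the 15, with a median of 28 kb. None of 11 DNA methylation genes had 10 or more, though the median coverage of their small territories was 30.3% in replicate 1 and 29.4% in replicate 2. Of 13 housekeeping genes, 4 had 10 or more, with Ywhaz at 52 and Cdk1 at 42, but the median was 0 peaks. At least 1 peak was found for 46.2% of them, against 45.8% of all genes. Only 7 of the 13 had territory, with a median of 50.7 kb. Over those 7, median coverage was 29.2% in replicate 1 and 28.3% in replicate 2.

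**Figure D4:**
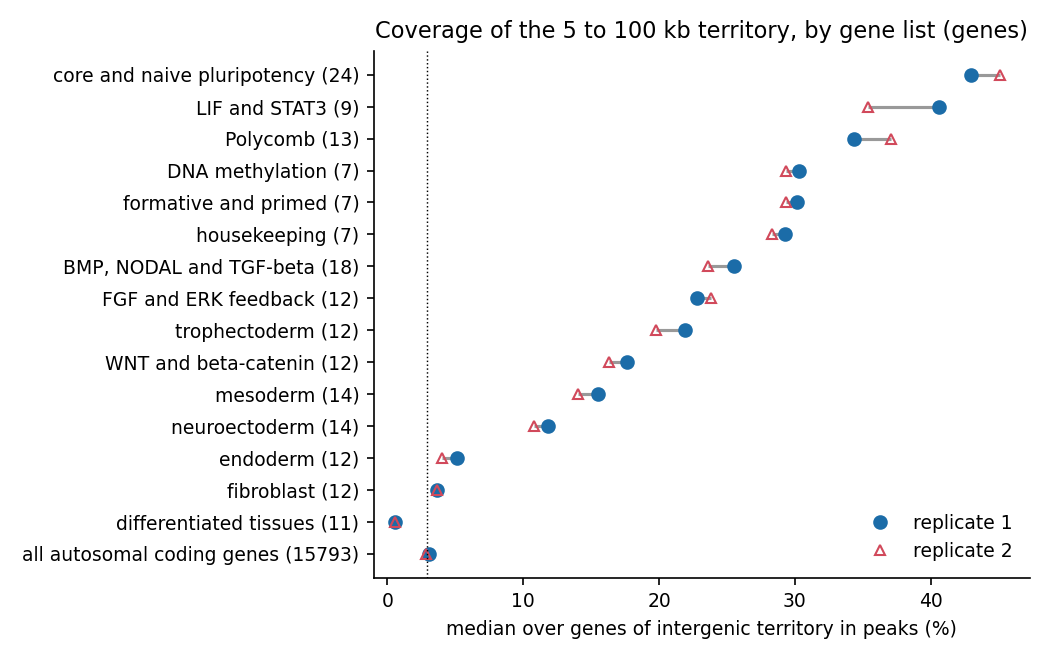
Median coverage of the intergenic territory (% of bases in peaks) of the genes of each list, with a blue circle for replicate 1, a red triangle for replicate 2, the number of genes with territory in brackets, and a dotted line at the mean of both replicates' medians over all genes. The core and naive pluripotency list is at 43.0% in replicate 1 and 45.1% in replicate 2, and the differentiated tissue list at 0.526% in both.

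Short intergenic spaces were covered more than long ones. Coverage in spaces under 50 kb between neighbouring genes was 12.2% in replicate 1 and 11.9% in replicate 2, and in spaces over 500 kb it was 3.54% in replicate 1 and 3.59% in replicate 2. The order was the same where distance was held at 10 to 20 kb from the TSS, with 11.96% in replicate 1 and 11.7% in replicate 2 under 50 kb, and 5.06% and 5.14% over 500 kb. The order by orientation of the flanking genes differed between all spaces and those of 50 to 200 kb. No other length class was split by orientation, and the mix of lengths behind the values over all spaces was not tested. Over all spaces, those between converging genes were covered most, 9.18% in replicate 1 and 9.004% in replicate 2, against 8.01% and 7.81% between diverging genes. In spaces of 50 to 200 kb, converging genes had 7.56% in replicate 1 and 7.31% in replicate 2, against 9.36% and 9.08% for diverging genes. Among chromosomes, the number of peaks per Mb of territory was highest on chromosome 11, at 143.6, and lowest on chromosome 7, at 68.7.

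Many of the peaks met non-coding genes, which the rule did not use. Of the 53978 peaks, 9990, or 18.5%, had their centre in a long non-coding RNA record, and such records took up 13.5% of the territory. Inside these records 11.9% of bases lay in peaks of replicate 1 and 11.6% in replicate 2, against 7.61% and 7.47% outside. Of 4309 long non-coding RNA starts in the territory, 1499, or 34.8%, had a 300 bp promoter window that overlapped a peak, against 11.2% of such windows along the territory. The Gm34056 and Gm36486 windows printed above are 2 of them. At Gm34056 the overlapping replicate peaks had signal values of 11.6 in replicate 1 and 10.4 in replicate 2, and at Gm36486 of 11.1 in replicate 1 and 12.3 in replicate 2.

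Of 122 miRNA hairpins in the territory, 46, or 37.7%, were overlapped by 32 of the peaks. Of 300 bp windows along the territory, 11.2% overlapped a peak of the list. The 2 shares are not alike, since hairpins are shorter than those windows and several hairpins shared a peak. Hairpins whose names begin with Gm were left out. One peak, chr14:115043052-115046481, held the 6 hairpins of the miR-17~92 cluster, which promotes proliferation, and another, chr6:124712937-124722277, held Mir200c and Mir141, known for maintaining the epithelial state. The mature sequences are shown because both peaks carry miRNAs that share or nearly share a seed, bases 2 to 8, given in capitals (RefSeq, GRCm38.p6).
miR-17-5p: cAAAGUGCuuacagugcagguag
miR-20a-5p: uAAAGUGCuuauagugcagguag
miR-18a-5p: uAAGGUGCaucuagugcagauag
miR-19a-3p: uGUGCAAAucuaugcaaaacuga
miR-19b-3p: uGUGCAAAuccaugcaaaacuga
miR-92a-3p: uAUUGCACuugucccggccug
miR-200c-3p: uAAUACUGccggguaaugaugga
miR-141-3p: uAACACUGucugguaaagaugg
miR-17-5p and miR-20a-5p had the same seed, as did miR-19a-3p and miR-19b-3p, while those of miR-200c-3p and miR-141-3p differed. The miR-17~92 peak was 3430 bp wide with a modest signal value of 3.94, and the replicate peaks with the largest overlap had 5.04 in replicate 1 and 4.18 in replicate 2. The Mir200c and Mir141 peak was 9341 bp wide with a signal value of 8.75, with 9.79 in replicate 1 and 7.31 in replicate 2. The highest signal value over a hairpin, 15.3, was at Mir7671, 6389 bp upstream of Irf1, an interferon regulatory factor gene. The peak at Mir1897, 11492 bp upstream of Sox2, had 8.17.

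Motif letters were counted in the 1 kb around the centre of mm9 intergenic peaks, chosen by the same distances, and in mm9 territory outside the peaks. The ESRRB and KLF letters were more frequent in the peaks. ESRRB letters were in 4.87% of replicate 1 windows and 4.98% of replicate 2 windows, against 2.01% of unmarked windows, and KLF letters in 14.6% of windows in each replicate, against 5.51%. The octamer and SOX letters were less frequent, with 6.42% in replicate 1 and 6.67% in replicate 2 for the octamer, against 9.01%, and 14.5% and 14.9% for SOX, against 19.05%. Base composition moved with these counts, since mean GC content was 47.8% in replicate 1 and 47.5% in replicate 2, against 41.6% in unmarked windows. Within classes of GC content the octamer and SOX letters had no single direction. At 45 to 50% GC the octamer was in 6.60% in replicate 1 and 6.65% in replicate 2, against 4.93% in unmarked windows. At 40 to 45% GC it was in 8.67% in replicate 1 and 8.89% in replicate 2, against 10.3% in unmarked windows, and SOX letters were in 19.6% and 19.5%, against 21.5%. At 35 to 40% GC the octamer was in 10.6% in replicate 1 and 9.38% in replicate 2, against 10.5%, and SOX letters in 22.3% and 20.7%, against 19.9%. At 55 to 60% GC the octamer was in 3.02% and 3.39%, against 1.07%, and SOX letters in 6.05% and 7.66%, against 7.68%. At 45 to 50% GC, SOX letters were in 14.7% and 15.3%, against 13.7%, ESRRB letters in 5.04% and 5.28%, against 2.62%, and KLF letters in 15.1% and 15.4%, against 8.40%. The intergenic peaks also held ESRRB and KLF letters more often than peaks under 5 kb from a TSS, where ESRRB letters were in 3.70% of windows in replicate 1 and 3.90% in replicate 2, and KLF letters in 11.0% and 11.4%. The order was the same at 45 to 50% GC, with 4.49% in replicate 1 and 4.72% in replicate 2 for ESRRB and 12.1% and 11.9% for KLF under 5 kb. Peaks inside genes had ESRRB letters in 4.28% in replicate 1 and 4.38% in replicate 2, and KLF letters in 13.2% and 13.1%. Over 100 kb away the shares were 3.97% and 4.39% for ESRRB and 12.2% and 12.5% for KLF. At 35 to 40% GC, ESRRB letters over 100 kb away were in 5.16% and 4.57%, against 3.88% and 3.91% at 5 to 100 kb. Without regard to GC content, all peak classes thus exceeded the unmarked windows, which came only from territory at 5 to 100 kb. At 55 to 60% GC the excess did not hold over 100 kb away in replicate 1. ESRRB letters were there in 0.334% in replicate 1 and 1.40% in replicate 2, against 1.07% in unmarked windows. KLF letters were in 11.04% and 19.6%, against 11.9%. Repeats were not masked, and their part in these shares was not tested.

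**Figure D5:**
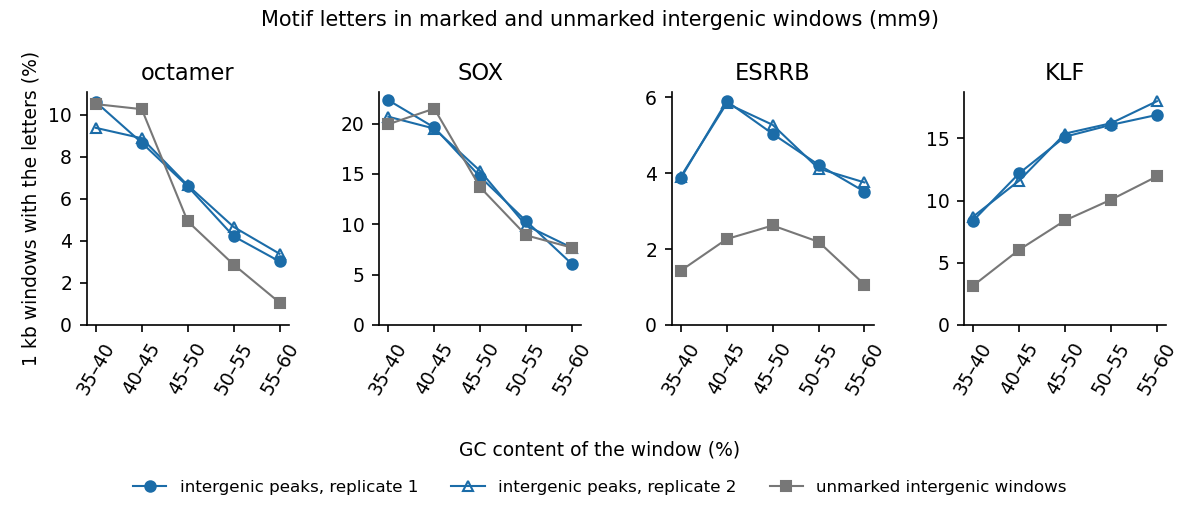
Share of 1 kb windows (%) holding the letters of each motif by GC content of the window (%), for mm9 intergenic peaks of replicate 1 (blue circles) and replicate 2 (blue triangles) and for unmarked territory (grey squares). ESRRB and KLF letters are more frequent in peaks in every GC class drawn, and at 45 to 50% GC the octamer is in 6.60% of replicate 1 and 6.65% of replicate 2 windows, against 4.93% of unmarked windows.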

How the data were processed

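H3K4me1 ChIP-seq peak lists of 2 biological replicates of E14TG2a.4 cells were used as deposited. Which aligner and which peak caller made them is not given in the sources used here. The mm10 lists are narrowPeak files, per the file headers, of which 2 hold single replicates, 1 the pool and 1 the peaks kept as replicated. In them the authors give each peak a signal value, whose definition is not stated, and a −log10 p and −log10 q. The deposited mm9 lists are broadPeak files whose columns are a signal value, then a p-value, then a q-value. The rule by which peaks were kept as replicated is not stated.

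Gene records came from RefSeq for GRCm38.p6 and strands from its promoter table or GENCODE vM1; 331 of 20661 autosomal genes had no strand and their starts were not used. Territory was counted on a 100 bp grid, with assembly gaps kept in. Sequences of peaks were read only on mm9, with GENCODE vM1 genes, and no coordinate was converted between builds. Windows on chromosome 18 were not considered for printing. A replicate signal value beside a peak is that of the replicate peak with the largest overlap. List genes off the autosomes or without a strand were not measured, and some genes are not reported here. The peaks described and the gene lists were chosen with earlier results of these data known. Named genes were the 10 nearest to the most peaks, the top 2 and up to 1 with none of each list, those at the 5 widest peaks, 5 widest clusters and 5 highest signal values that both replicates overlapped, and those at the bounds; genes named beyond these, such as Sox2, Pou5f1, Nanog and Dppa4, were chosen after their values were seen. Whether the replicates came from separate cultures beyond the label is not stated, so mean ± SD describes these 2 libraries, and with 1 group no test was made. No list gives counts, and depth is thus unknown. Alternatives changed the list, the build, the replicate, the bounds, the gene models, gaps, overlaps and windows. Functions were tested on simulated data. Computations ran in Python 3.11.15 with pandas 2.3.3, numpy 2.4.6 and matplotlib 3.10.9.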

Additional observations from a re-analysis of the deposited data

How the results depend on the processing

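The upstream share of the peaks was 69.2% in the pooled list, 68.7% in the mm9 list, 69.4% by summit, 69.2% with both ends of genes without strand and 68.7% with gene records of every type, and 69.2581% to 69.2776% in single replicates, while the upstream share of the territory was computed with the main gene models only. The mm9 alternative changed list, build and gene models together. Median width was 477 bp in the pooled list, 1600 bp in the mm9 list, 656 bp with gene records of every type and 390 to 398 bp in single replicates. The share with a neighbour within 1 kb was 76.6% in the pooled list, 38.1% in the mm9 list and 79.3% to 80.0% in single replicates. With neighbours allowed at 3 kb it was 84.2% and at 10 kb 94.9%, and counting only intergenic peaks of the same kind it was 67.9% at 1 kb, 81.2% at 3 kb and 91.3% at 10 kb. Clusters numbered 53978 without joining, 16740 at 3 kb and 6132 at 10 kb. The median distance was 25853 bp in the pooled list, 26434 bp on mm9, 24567 bp with every gene type and 25637 to 25859.5 bp in single replicates. The mm9 list held 34332 such peaks and 9 pluripotency genes with 10 or more, and the share over all its genes was not computed. The share met by both replicates was 80.3% with at least 50% of the peak covered, 66.001% with that overlap required of both peaks, 88.3% with replicate peaks at a −log10 q of at least 2 and 94.4% for peaks of 300 bp or wider, and 95.6% to 96.2% for single replicates. The difference in median signal from the other autosomal peaks was 0.00473, and 0 to 0.0463 in single replicates. In 500 bp windows the octamer was in 3.63%, SOX in 7.90%, ESRRB in 2.61% and KLF in 8.56%; at 45 to 50% GC SOX was in 15.1%, ESRRB in 5.32% and KLF in 15.5%. Single replicates gave 6.42% to 6.67%, 14.5% to 14.9%, 4.87% to 4.98% and 14.57% to 14.6% for the 4 motifs in the same order. The GC band, the 300 bp limit, curated genes, single-replicate motif shares and the list alternatives for pluripotency genes were chosen after seeing the data. Of 98 alternative values, 49 moved by more than the spread between replicates, or by over 1.5 times for counts. No paired analysis was possible because the labels give 1 group. Depth is unknown, so how far it limits weak or narrow peaks was not tested.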

Other observations

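In bins of 5 Mb with at least 1 Mb of territory, 318 in all, the median was 92.6 intergenic peaks per Mb of territory. The highest bin, chr2:165000001-170000000 on mm10, held 531 of the peaks at 338 per Mb, and replicate 1 peaks covered 32.2% of its territory and replicate 2 peaks 30.05%. This bin holds the starts of Zfp64 and Pard6b.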
